A study of Physcomitrium patens with 47 samples.

Results

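The genes described here are the 150 whose messenger RNA peaked most sharply at zeitgeber time 2 (ZT2, in hours after lights on) in wild-type (WT) plants of the moss Physcomitrium patens. They were chosen from the WT libraries alone. In those libraries counts were scaled by the library total to CPM, and the mean of log2(CPM + 1) at ZT2 was compared with that at ZT0 and at ZT6. Of 32926 genes in the table, 11600 had a WT group mean of at least 10 CPM, a WT mean under 1000 CPM and an ID (gene identifier) outside the prefixes Pp3c2, Pp3c25 and Pp3c27. Among these, 1219 stood at least 0.5 higher at ZT2 than at both other times, and the 150 with the largest value of the smaller of the 2 differences were taken. The WT values therefore set the membership, and differences between WT times, or between WT and a knockout, are given below as a description with no test. The knockout libraries took no part in the choice, and all tests are made within and between the knockouts.

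In plants, the first hours of light bring a wave of transcription: photoreceptors such as phytochromes and cryptochromes release light-responsive transcription factors, the circadian clock gates genes to the morning, and photosynthesis begins to deliver sugar and reducing power. Many transcripts induced in this way are transient and have fallen again by midday. Mitochondrial respiration meets this wave from the other side, since it carries the energy supply through the night and takes up part of the reducing power in the light.

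The series compared WT with lines in which COX11 or NDUFA5 had been disrupted by an antibiotic resistance cassette inserted by homologous recombination. As background, COX11 is a mitochondrial protein that delivers copper to cytochrome c oxidase, the last complex of the respiratory chain, whereas NDUFA5 belongs to NADH dehydrogenase, the first. WT has 6, 4 and 8 libraries in order of time, COX11 KO has 5 at each time (lines 150 and 152), and NDUFA5 KO has 4, 5 and 5 (lines 46 and 48). All plants were protonema with young gametophores, grown above nitrate medium with light for 12 h of each day, so that a level is an average over filaments and leafy shoots. ZT0 plants were frozen in the dark under dim green light, and ZT2 and ZT6 plants in the light. The files pair no ID with a gene name and none of the IDs was found in the reference table, so that the targeted genes could not be checked, tissue markers could not be looked up and no function is given to any of the 150 genes.

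Library totals lay between 4060158 and 10349604 counts, with a median of 5659267 and a second highest of 6714980. Each library has a code with the letter A or Z, whose meaning is not stated. All 4 WT libraries at ZT2 carry A and all 6 at ZT0 carry Z, so that letter and time cannot be told apart in the WT difference that chose the genes. In COX11 KO, 4 of 5 libraries at ZT2 carry A and all 5 at ZT0 carry Z. In NDUFA5 KO, 2 of 5 at ZT2 carry A, both of line 48, as does 1 of 4 at ZT0. Below, CPM are on library totals scaled by the trimmed mean of M-values (TMM), and a gene is called at a false discovery rate (FDR) of 0.05 in the quasi-likelihood F test of edgeR over the 18460 genes that passed the filter on low counts. All 150 genes passed it, which they could do through WT at ZT2 alone.

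In WT the genes spanned a wide range of abundance. Group means at ZT2 ran from 10.9 to 2260 CPM with a median over genes of 108, against 19.9 CPM at ZT0 and 26.2 at ZT6. The median gene stood at 4.29 ± 0.203 in log2(CPM + 1) at ZT0 (SD over libraries, n = 6). It reached 6.76 ± 0.0993 at ZT2 (n = 4) and was back at 4.65 ± 0.256 by ZT6 (n = 8). In such bulk RNA, fewer cells of a type and less RNA per cell cannot be told apart. With 1 model of each pair that shared its reads counted, the genes made up a median of 0.473% of a WT library at ZT0, of 2.97% at ZT2 and of 0.69% at ZT6. By ZT6, 117 of the 150 were still above their ZT0 level, with a median log2 fold change of 0.495 against 0.03 over all genes tested.

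**Figure D1:**
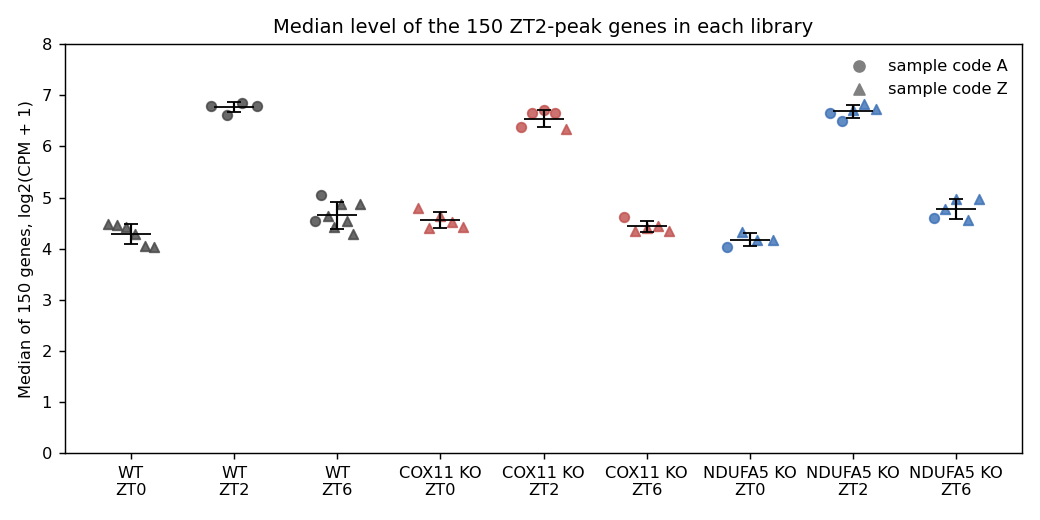
Median of log2(CPM + 1) over the 150 genes in each of the 47 libraries (y axis), by genotype and time (x axis). Points are libraries, circles for sample code A and triangles for Z, and bars are the mean and SD over libraries. The 14 ZT2 libraries lie between 6.34 and 6.85 in all 3 genotypes, and no library of another time exceeds 5.04.

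The sharpest WT peak belonged to Pp3c15_6620, with a mean of 8.65 in log2(CPM + 1) at ZT2 against 3.28 at ZT0 and 4.36 at ZT6. WT libraries held 348, 323, 555 and 470 CPM at ZT2. At ZT0 they held 6.28 to 14.3 CPM, and at ZT6 13.1 to 35.8. Every ZT2 library was thus far above every library of the other times. The second gene by rank, Pp3c15_6622, has nearly the same counts (a summed difference of 0.002%), many of them fractional, and the pair cannot be read as separate genes. The same holds for Pp3c15_12510 and Pp3c15_12515 (0.059%) and for Pp3c23_8060 and Pp3c23_8061 (0.223%), whereas Pp3c8_8860 and Pp3c8_8490 differ by 8.05% and have whole counts. In all, 8 of the 150 genes had fractional counts.

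The most abundant of the 150, which exclude genes with a WT mean of 1000 CPM or more, were Pp3c21_9980, with 2410, 2360, 2020 and 2240 CPM in WT at ZT2, and Pp3c15_4270, with 1440, 1370, 1620 and 1780. At the other end, Pp3c13_11180 entered as the last gene with a smaller difference of 1.4107 and Pp3c24_12160 missed with 1.4086, so that nothing sets the limit apart. The genes were spread over 23 ID prefixes, with at most 11 on one prefix (Pp3c15 and Pp3c19), and 8 pairs lay within 5 IDs of each other, 3 of them the pairs that share reads. Pp3c21_9980 and its next ID, Pp3c21_9970, are both among the 150.

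The first question was whether genes picked in WT also peaked at ZT2 in plants without COX11. Nearly all of them did. Between ZT0 and ZT2, 146 of 150 rose in COX11 KO, where 22.7% of all genes tested rose, and 0 fell, as against 23.7% of all genes. No gene fell at an unadjusted p under 0.05 in edgeR either (0), nor in DESeq2 (0). The median log2 fold change was 1.98, against -0.03 over all genes. In 142 of the 150 every ZT2 library was above every ZT0 library, which held for 17.1% of all genes, and the reverse, seen in 16.8%, held for 0. Within the libraries of code letter Z, where COX11 KO has only 150-3 at ZT2, the median log2 fold change was 1.721, against -0.051 over all genes. With the letter as a covariate 144 were called higher.

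From ZT2 to ZT6 the levels came down again. Of the 150, 140 were higher at ZT2 than at ZT6 in COX11 KO (19% of all genes), 0 were lower (17.7%), also by DESeq2 and at an unadjusted p under 0.05, and the median log2 difference was 1.905 against 0.00. The libraries did not overlap in 135 genes, against 14.7% of all genes, and the reverse held for 0 (12.9%). Within letter Z, with the same single library at ZT2, the median was 1.674 against -0.018. Both comparisons use the same ZT2 libraries.

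Pp3c15_6620 illustrates the size of the peak. COX11 KO libraries held 466, 549, 534, 497 and 624 CPM at ZT2 (534 ± 60.1, SD, n = 5). At ZT0 they held 37, 37.6, 47.8, 35.8 and 44.4 CPM, and at ZT6 20.9, 19.3, 28.2, 31.2 and 19.1. The 3 groups did not overlap, and ZT6 was the lowest. The log2 fold change was 3.72 from ZT0 (SE 0.253, edgeR adjusted p = 9.79e-16) and 4.49 over ZT6 (SE 0.263, edgeR adjusted p = 1.36e-17).

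By the smaller of the 2 log2 fold changes, Pp3c8_6770 and Pp3c24_9690 had the largest peaks in COX11 KO. Pp3c8_6770 had 340, 304, 301, 255 and 259 CPM at ZT2, where ZT0 libraries had 12.3 to 18.9 and ZT6 libraries 7.31 to 9.23. Its log2 fold changes were 4.27 over ZT0 (SE 0.247, edgeR adjusted p = 7.61e-18) and 5.11 over ZT6 (SE 0.26, 1.47e-19). The 5 ZT2 libraries lay within a narrow range. Pp3c24_9690 varied far more between libraries, with 126, 272, 561, 266 and 63.3 CPM at ZT2, 3.7 to 39.8 at ZT0 and 2.64 to 7.91 at ZT6. Its ZT2 libraries still cleared all others, by a log2 fold change of 4.20 over ZT0 (SE 0.778, edgeR adjusted p = 1.95e-05). Within letter Z that value was 2.19 and no longer called (edgeR adjusted p = 0.125).

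**Figure D2:**
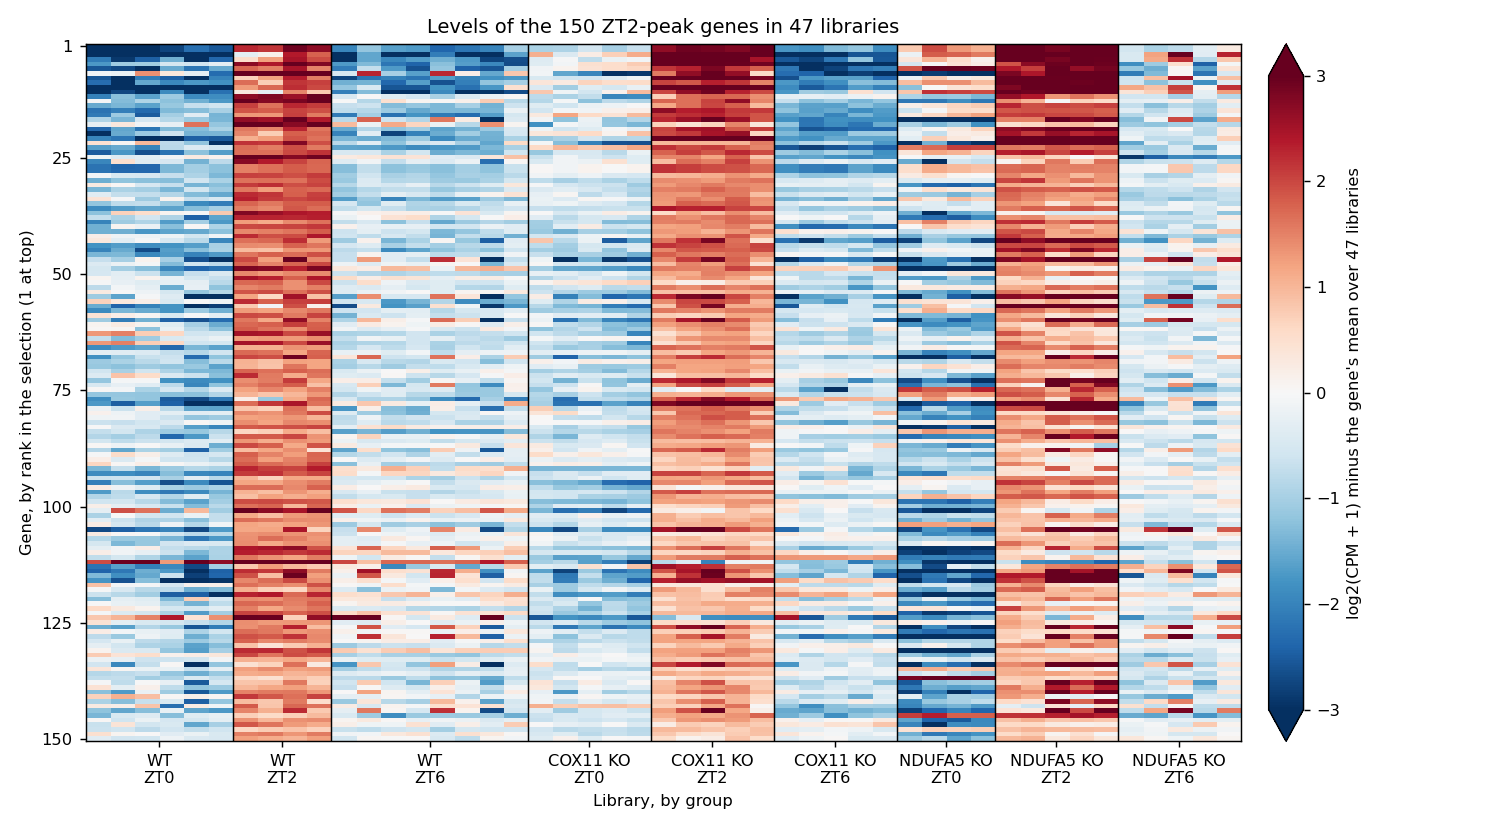
Each row is 1 of the 150 genes in rank order and each column 1 of the 47 libraries, by group. Colour is log2(CPM + 1) minus the gene's mean over all libraries, cut off at 3 units on either side. The ZT2 columns are mostly red in all 3 genotypes, but not for every gene: Pp3c18_17700 lies below its mean there in both knockouts. The SD of log2(CPM + 1) between libraries exceeds 1 for 20 genes in NDUFA5 KO at ZT2, 20 in NDUFA5 KO at ZT6 and 18 in WT at ZT6.

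Plants without NDUFA5 showed the peak as well. From ZT0 to ZT2, 141 of 150 genes rose in NDUFA5 KO (31.1% of all genes) and 2 fell (29.1%), with a median log2 fold change of 2.34 against 0.06. Over ZT6, 132 were higher at ZT2 (27.2%) and 0 lower (24.1%), again with 0 at an unadjusted p under 0.05 and 0 in DESeq2. The median was 1.67 against 0.03. The libraries did not overlap in 136 genes between ZT2 and ZT0 (22.5% of all genes) and in 108 between ZT2 and ZT6 (17.3%); with ZT2 the lower group they were 2 (22.9%) and 0 (15%). Within letter Z, 133 and 123 were called higher at ZT2, and the shares of all genes under that setting are not given. The NDUFA5 KO values of Pp3c15_6620 were 741, 771, 524, 749 and 633 CPM at ZT2, 126, 282, 179 and 153 at ZT0 and 48.9, 37.1, 41.6, 57.4 and 87.1 at ZT6. Each group stood apart, but ZT0 was well above ZT6 here.

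The 2 largest peaks in NDUFA5 KO were those of Pp3c3_14907 and Pp3c9_5760. Pp3c3_14907 had 88.2 and 62.3 CPM in the libraries of line 48 at ZT2 and 744, 218 and 568 in those of line 46. Its ZT0 libraries held 0.416 to 3.24 CPM and its ZT6 libraries 1.76 to 14. All ZT2 libraries were above all others, and the lines did not overlap. The log2 fold changes were 7.52 over ZT0 (SE 0.813, edgeR adjusted p = 1.16e-10) and 5.92 over ZT6 (SE 0.648, 4.73e-10). Pp3c9_5760 showed the same split, with 205 and 173 CPM in line 48 and 649, 313 and 575 in line 46, against 0.416 to 4.51 at ZT0 and 3.95 to 10.9 at ZT6.

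Taking both conditions together, 137 of 150 genes were called above both ZT0 and ZT6 in COX11 KO, against 8.64% of all genes, and 124 in NDUFA5 KO, against 9.39%. By the differences of the selection itself, at least 0.5 on each side, 141 and 127 qualified (7.05% and 8.6% of all genes). In 118 genes the peak was called in both knockouts, which is 86.1% of the COX11 KO list and 95.2% of the NDUFA5 KO list. It was called only in COX11 KO in 19, only in NDUFA5 KO in 6, and in neither in 7. A large overlap follows already from 137 and 124 of 150 being called, so it is no separate result. The share of all genes called in both knockouts was not computed. Whether the change itself differed between the knockouts was tested gene by gene and is given further on. Over the 150 genes the ZT0 to ZT2 changes of the knockouts, which share no library, correlated with r = 0.592 (Spearman 0.498), and over all genes tested with r = 0.653. This is a description across genes, which are not independent replicates.

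In COX11 KO 9 of the 13 genes without a called peak were above ZT0 but not called above ZT6, 3 were above ZT6 only and 1 above neither. In NDUFA5 KO the same numbers were 17, 8 and 1 of 26.

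Pp3c20_23430 is of the first kind in both knockouts. WT libraries had 441, 470, 288 and 435 CPM at ZT2 and 98.2 to 187 at ZT6. COX11 KO had 162, 168, 148, 252 and 242 CPM at ZT2 against 235, 179, 205, 142 and 199 at ZT6, and NDUFA5 KO 164, 160, 180, 159 and 172 against 144, 137, 104, 217 and 180. In each knockout the times overlapped, with log2 differences of 0.02 (SE 0.309, edgeR adjusted p = 0.975) and 0.10 (SE 0.31, 0.822). The rise from ZT0 was called in both, by 2.73 (SE 0.336, edgeR adjusted p = 7.39e-09) and 4.75 (SE 0.422, 5.39e-13).

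The most abundant of the 150 in WT at ZT2, Pp3c21_9980, also had no called fall from ZT2 to ZT6 in NDUFA5 KO. There, ZT2 libraries held 941 and 840 CPM in line 48 and 458, 520 and 449 in line 46, and ZT6 libraries 630, 490, 439, 727 and 889. The times overlapped, with a log2 difference of 0.015 (SE 0.206, edgeR adjusted p = 0.961). COX11 KO had 1160, 1150, 1180, 1280 and 1280 CPM at ZT2 against 1100, 720, 739, 690 and 891 at ZT6, which did not overlap (0.55, SE 0.206, edgeR adjusted p = 0.0329). The difference of 0.53 between the knockouts was itself not called (SE 0.291, edgeR adjusted p = 0.208). Pp3c15_22920 was different in this respect. COX11 KO held 200, 200, 164, 211 and 173 CPM at ZT2 and 16 to 38 at ZT6, whereas NDUFA5 KO held 67.6, 60.2, 47, 62.9 and 50.8 at ZT2 and 47.8 to 69.1 at ZT6. For this gene the difference between the knockouts in the ZT6 to ZT2 change was called, at 2.74 (SE 0.288, edgeR adjusted p = 2.04e-09).

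Only 4 genes were not called higher at ZT2 than ZT0 in COX11 KO, and they are named with their values known: Pp3c8_14980, Pp3c16_20890, Pp3c5_22920 and Pp3c19_2940. Pp3c19_2940 had 11.9, 11.8, 16.7, 23.4 and 7.14 CPM at ZT2 and 12.1 to 15.4 at ZT0, a log2 change of 0.07 (SE 0.325, edgeR adjusted p = 0.878), but only 1.22 to 2.99 at ZT6. Pp3c8_14980 likewise had 45.9 to 70.6 CPM at ZT2, 43.4 to 67.7 at ZT0 and 21.3 to 35.8 at ZT6. For both genes ZT0 and ZT2 libraries overlapped and ZT6 libraries lay below them. Pp3c5_22920 was erratic, with WT libraries of 144, 44.9, 8.42 and 35.9 CPM at ZT2 and 2.72 to 140 at ZT6. In COX11 KO it was at most 3.22 CPM at ZT0 and ZT2 and reached 31.8 in a single library, 150-1, at ZT6.

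The 2 genes that fell from ZT0 to ZT2 in NDUFA5 KO, Pp3c14_10250 and Pp3c7_15800, were high at the end of the night there. Pp3c14_10250 had 256, 326, 305 and 275 CPM in NDUFA5 KO at ZT0 and 60.2, 60.8, 50.8, 54.6 and 51.1 at ZT2. In COX11 KO it had 23, 35.7, 34.7, 28.1 and 27.1 CPM at ZT0 and 41.9, 54.7, 55.7, 48.4 and 48.3 at ZT2, and in WT 16.5 to 25.0 and 48.7 to 65.6. At ZT2 the genotypes overlapped, and at ZT0 the NDUFA5 KO libraries stood alone. It fell by 2.39 in NDUFA5 KO on the log2 scale (SE 0.142, edgeR adjusted p = 1.98e-18) and rose by 0.74 in COX11 KO (SE 0.136, 1.7e-05). Pp3c7_15800 had 77, 76.7, 68.5 and 74.3 CPM in NDUFA5 KO at ZT0 and 52, 58.7, 33.9, 46.4 and 37.9 at ZT2, and fell by 0.69 (SE 0.172, edgeR adjusted p = 0.000611). With library totals in place of TMM that change was -0.389 and not called (edgeR adjusted p = 0.0649).

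The knockouts were next compared with each other, which needs no WT library. They differed most at ZT0. There, 64 of 150 genes were higher in COX11 KO than in NDUFA5 KO (31.6% of all genes) and 44 were lower (28.4%), and only the first count lies well above its background. The middle 50% of the members ran from -0.82 to 1.43 in log2 and that of all genes from -0.52 to 0.83, with medians of 0.53 and 0.09. Libraries did not overlap in 58 genes that were higher (24% of all genes) and 40 that were lower (23.4%). With library totals in place of TMM the split was 73 higher and 30 lower, and the median of all genes moved to 0.484.

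The 64 genes higher in COX11 KO at ZT0 had a median of 25.7 CPM there, near the 23.4 of WT, and 6.67 in NDUFA5 KO. At ZT2 the medians of the same genes were 122 CPM in WT, 93.7 in COX11 KO and 77.3 in NDUFA5 KO. The 44 lower genes had 35.7 CPM in COX11 KO, 23.7 in WT and 92.3 in NDUFA5 KO at ZT0, and 147, 178 and 180 CPM at ZT2. Both lists were chosen by the difference between the knockouts at ZT0, and WT levels chose the 150 genes, so these medians are a description and the contrast between ZT0 and ZT2 in them supports nothing.

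Pp3c3_14480 and Pp3c23_14240 were the extremes on the high side of COX11 KO at ZT0. Pp3c3_14480 had 0, 0, 0.202 and 0 CPM in NDUFA5 KO, 1 count in all, and 1.42, 3.21, 0.873, 1.54 and 1.35 in COX11 KO, 44 counts. The ratio of COX11 KO to NDUFA5 KO was 36.1 (exact 95% binomial interval 6.16 to 1460, counting error only). At ZT2 it reached 195 counts in NDUFA5 KO, 152 times its ZT0 level (26.9 to 6020). Pp3c23_14240 had 90.1, 41.2, 85.2, 42.1 and 51.8 CPM in COX11 KO and 3.95, 7.75, 7.07 and 3.14 in NDUFA5 KO, a log2 fold change of 3.45 (SE 0.729, edgeR adjusted p = 8.35e-05). Neither gene's knockout libraries overlapped.

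On the low side were Pp3c14_10250, at -3.29 (SE 0.147, edgeR adjusted p = 3.18e-22), and Pp3c8_15610, at -2.59 (SE 0.211, 6.25e-14). Pp3c8_15610 had 8.77 to 11.4 CPM in COX11 KO, 52.3 to 78.4 in NDUFA5 KO and 4.97 to 12.3 in WT at ZT0. In NDUFA5 KO it stayed there at ZT2 (68.4 to 85.9 CPM, a log2 change of 0.27, SE 0.194, edgeR adjusted p = 0.224) and dropped to 3.49 to 7.75 CPM by ZT6. WT libraries reached 21.7 to 28.8 CPM at ZT2 and COX11 KO libraries 31.8 to 50.6, below every NDUFA5 KO library of ZT0 and ZT2.

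**Figure D3:**
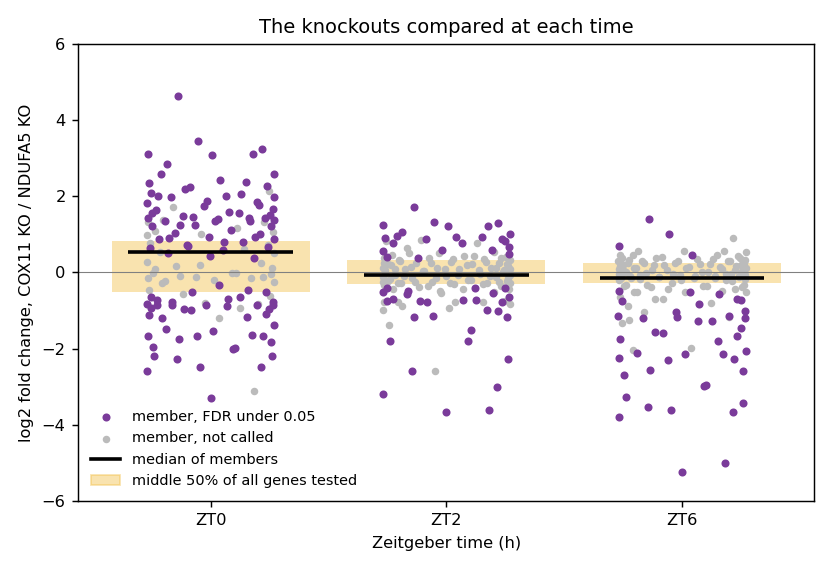
Log2 fold change of COX11 KO over NDUFA5 KO (y axis) for the 150 genes at each time (x axis). Purple points are called at FDR 0.05 and grey points are not, black lines are medians of the 150, and yellow bands hold the middle 50% of all genes tested. The spread is widest at ZT0, and at ZT6 the called genes lie nearly all below 0 (4 higher, 42 lower).

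At ZT2 itself 24 genes were higher in COX11 KO (13.6% of all genes) and 29 lower (15.2%), with a median of -0.08 against -0.003 over all genes, so that the shares stay near the background. With library totals the split was 26 and 19, and the median of all genes was 0.094. Without NDUFA5 KO libraries 46-1 and 46-3 at ZT2, a pair picked after the values were seen, 14 genes were higher and 18 lower. Fewer libraries by themselves also lower the number of calls, so this does not show that the counts depend on that pair. Libraries did not overlap in 18 and 14 genes (9.14% and 9.45%). Pp3c15_22920 was the highest, with a log2 fold change of 1.72 (SE 0.202, edgeR adjusted p = 1.48e-08) between the values given above. Pp3c18_17700 came next at 1.31 (SE 0.51, edgeR adjusted p = 0.0473), from 5.33, 7.31, 1.77, 9.03 and 9.26 CPM in COX11 KO and 5.96, 2.07, 1.81, 1.96 and 1.12 in NDUFA5 KO, where WT had 141 to 307. Its groups overlapped, and the call was lost in turn without each of several libraries (edgeR adjusted p = 0.0507 to 0.117).

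The lowest at ZT2 were Pp3c22_14960 and Pp3c9_5760. Pp3c22_14960 had 15.5, 34.5, 66.8, 19.1 and 19 CPM in COX11 KO, and 119 and 105 in line 48 and 812, 289 and 630 in line 46 of NDUFA5 KO, a log2 fold change of -3.66 (SE 0.611, edgeR adjusted p = 1.23e-05). Pp3c9_5760 had 27.9, 28.8, 28.5, 28.8 and 41.6 CPM in COX11 KO against 173 to 649 in NDUFA5 KO, at -3.62 (SE 0.475, 1.45e-07). Both were higher in every NDUFA5 KO library than in any COX11 KO library.

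At ZT6 the difference was one-sided: 4 genes were higher in COX11 KO (9.91% of all genes) and 42 lower (8.49%). The median was -0.16 against 0.00, and libraries did not overlap in 6 genes that were higher and 32 that were lower (7.19% and 5.62% of all genes). Leaving out NDUFA5 KO libraries 46-3 and 48-2 at ZT6, a pair picked after the values were seen, gave 22 lower in place of 42. Fewer libraries by themselves also lower the number of calls, and the share of all genes under that setting is not given. These libraries were both above the other 3 in 53 of the 150 genes (35.3%), as in 11.3% of all genes. Library 46-3 at ZT6 is line 46 by its title but line 48 by its characteristics. Why 46-3 and 48-2 stand apart was not tested.

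Pp3c4_21500 was the most extreme. COX11 KO libraries had 1260, 1130, 1010, 750 and 663 CPM at ZT2 and then 2.79, 2.44, 1.48, 4.93 and 4.97 at ZT6. NDUFA5 KO libraries had 321, 568, 562, 742 and 611 CPM at ZT2 and 25.1, 80.7, 315, 27.1 and 176 at ZT6. At ZT2 the knockouts overlapped (0.78, SE 0.483, edgeR adjusted p = 0.234), and at ZT6 they were far apart. At ZT6 the log2 fold change of COX11 KO over NDUFA5 KO was -5.24 (SE 0.626, edgeR adjusted p = 1.19e-07), and the ZT6 to ZT2 change differed by 6.02 (SE 0.786, 2.9e-07). In WT the gene was at 27.9, 38.9, 184 and 120 CPM at ZT2, at 1.29 to 2.56 at ZT0 and 1.07 to 11 at ZT6, while at ZT0 COX11 KO had 25.2 to 76.3 CPM and NDUFA5 KO 30.6 to 125.

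Pp3c19_9840 followed, at -5.00 (SE 0.931, edgeR adjusted p = 0.000168), with 3.57, 6.78, 9.89, 8.98 and 4.97 CPM in COX11 KO and 20.4, 169, 662, 24.2 and 218 in NDUFA5 KO. Here 46-3 and 48-2 were the highest NDUFA5 KO libraries, as they were for Pp3c4_21500. The 4 genes higher in COX11 KO at ZT6, named with their values known, were Pp3c24_11690, Pp3c8_1870, Pp3c7_15800 and Pp3c7_20320. Pp3c7_20320 held 162, 159, 159, 144 and 157 CPM in COX11 KO and 73.4, 46.7, 51.3, 60.5 and 63.7 in NDUFA5 KO (1.40, SE 0.179, edgeR adjusted p = 3.9e-07). Its ZT6 level in COX11 KO was close to that at ZT2 (156 to 224 CPM). Pp3c8_1870, at 1.01, was not called without 46-3 at ZT6 (edgeR adjusted p = 0.0792), nor without NDUFA5 KO 46-2 or COX11 KO 152-2 at that time.

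**Figure D4:**
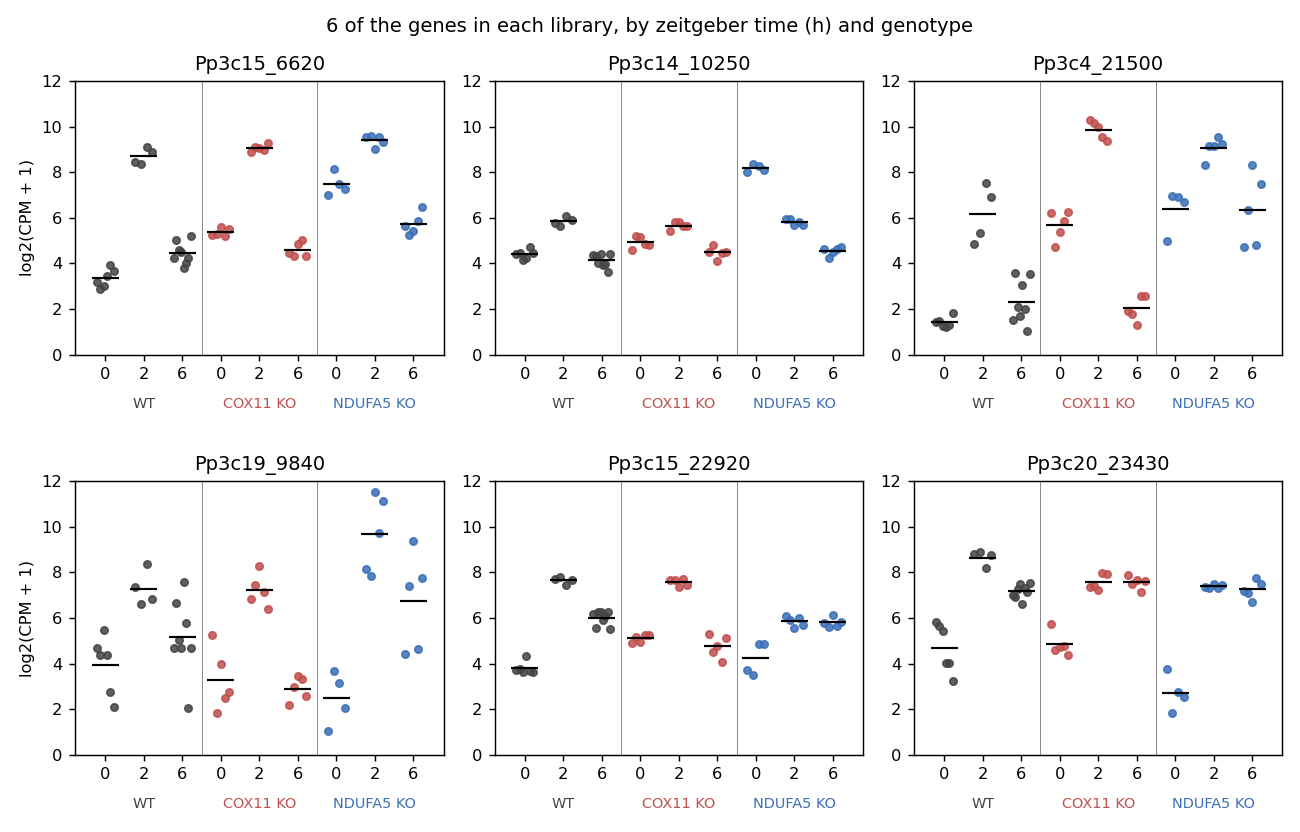
Log2(CPM + 1) of 6 genes in every library (y axis) by time in hours and genotype (x axis); black lines are group means. Pp3c14_10250 is high at ZT0 in NDUFA5 KO, Pp3c4_21500 is at 1.48 to 4.97 CPM at ZT6 in COX11 KO and at 25.1 to 315 in NDUFA5 KO, and Pp3c20_23430 overlaps between ZT2 and ZT6 in both knockouts.

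The change over time was then compared between the knockouts. The difference is signed, so that a fall in NDUFA5 KO counts as a larger change in COX11 KO. From ZT0 to ZT2 the change was larger in COX11 KO for 35 genes (17.5% of all genes) and smaller for 52 (18%), with a median of -0.495 against -0.09. With library totals the split was 26 and 64 and the median of all genes -0.38, and within letter Z the split was 19 and 35. Pp3c14_10250 (3.13, SE 0.196, edgeR adjusted p = 1.97e-16) and Pp3c14_12850 (2.53, SE 0.583, 0.000689) had the largest positive differences. Pp3c14_12850 rose from 4.51, 1.14, 5.24, 5.09 and 4.66 CPM to 35.5, 49.8, 70, 54.2 and 33.3 in COX11 KO, and from 6.87, 24.2, 11.1 and 10.4 to 23.7, 26.4, 13.2, 49.4 and 21.5 in NDUFA5 KO, where the times overlapped although the rise was called (0.99, SE 0.408, edgeR adjusted p = 0.034). Pp3c3_14907 (-4.89, SE 0.995, edgeR adjusted p = 0.000152) and Pp3c9_5760 (-4.68, SE 0.857, 3.34e-05) had the most negative ones. In COX11 KO, Pp3c3_14907 had 0.771 to 16.4 CPM at ZT0 and 12.8 to 70 at ZT2, groups that overlapped.

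**Figure D5:**
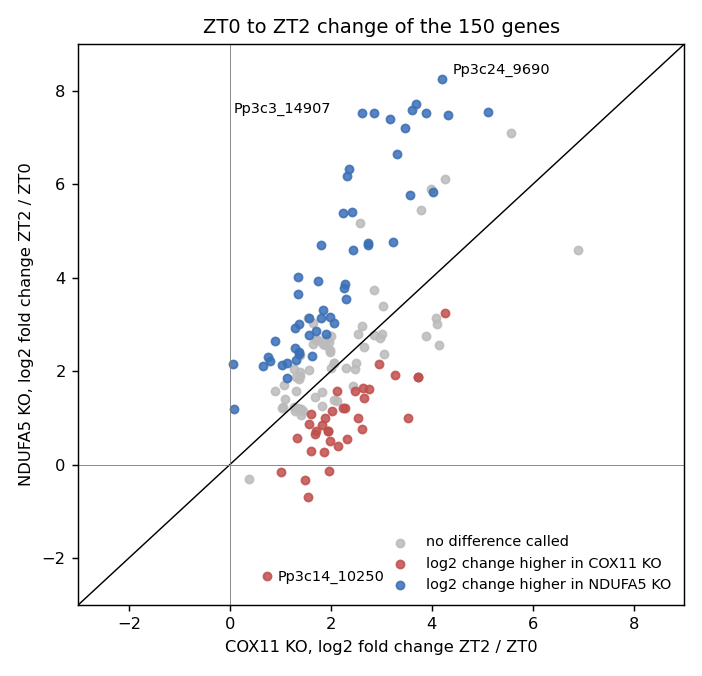
Log2 fold change from ZT0 to ZT2 in COX11 KO (x axis) and NDUFA5 KO (y axis) for the 150 genes, with the line of equal change. By sign, the log2 change was higher in COX11 KO for red genes (35) and higher in NDUFA5 KO for blue genes (52), both at FDR 0.05 for the difference, and grey genes were not called. All 150 lie to the right of 0 on the x axis, and 144 lie above 0 on the y axis.

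Between ZT6 and ZT2 the change was larger in COX11 KO for 25 genes (8.64% of all genes) and smaller for 6 (10.4%), with a median of 0.25 against 0.01. Within letter Z these counts were 12 and 0, and leaving out 1 library at a time gave 3 to 8 for the smaller change. Pp3c4_21500 led, followed by Pp3c8_8860 (3.99, SE 0.65, edgeR adjusted p = 1.59e-05), which had 56.8 to 145 CPM at ZT2 and 0.522 to 3.52 at ZT6 in COX11 KO. In NDUFA5 KO the same gene had 73.6 to 114 and 4.72 to 46 CPM. The most negative were Pp3c9_5760 (-3.13, SE 0.705, edgeR adjusted p = 0.00121) and Pp3c16_20890 (-1.82, SE 0.416, 0.00137). Pp3c16_20890 was at 207, 165, 179 and 235 CPM in NDUFA5 KO at ZT0, still at 99 to 228 at ZT2 and at 13.5 to 30.1 at ZT6, while COX11 KO libraries stayed between 4.62 and 69.9 CPM at all times.

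From ZT0 to ZT6 the 150 genes had no common direction in COX11 KO: 40 were higher at ZT6 (24% of all genes) and 48 lower (27.1%), with a median of -0.02 against -0.04. In NDUFA5 KO 73 were higher (37.1%) and 38 lower (34.9%), with a median of 0.64 against 0.08. With library totals the split was 96 and 30, but the median of all genes also moved, to 0.428. Libraries did not overlap in 30 and 39 genes in COX11 KO (17.1% and 18.6% of all genes) and in 61 and 33 in NDUFA5 KO (30.5% and 29.7%). Pp3c8_2950, chosen after its values were seen, had 0 counts in all 5 COX11 KO libraries at ZT0. Pooled over libraries, it was at least 24.1-fold higher at ZT2 (87 counts) and 11.6-fold higher at ZT6 (37 counts), against a floor of 3 counts over the ZT0 group. The ZT2 libraries did not overlap those of ZT0, whereas the ZT6 libraries did. The spread between libraries does not enter these ratios.

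Many of the genes were high in the same libraries. In NDUFA5 KO at ZT2, 46-1 and 46-3 were both above the other 3 libraries in 45 genes (30%, and 22.4% of all genes) and more than 2-fold above them in 18 (12.0%, and 2.37%). These 18, picked for that difference, include Pp3c24_9690, Pp3c23_14240, Pp3c3_14907, Pp3c19_9840 and Pp3c22_14960. The pairs of libraries in this paragraph were themselves picked after the values were seen, so the counts are a description with no test. In 17 of the 18, WT libraries 2 and 5 were both the highest at ZT6, as they were in 11 of the other 132 genes and 6.86% of all genes. In 17, library 3 was the highest WT library at ZT2 (48 of the other 132, and 26.1% of all genes), and in 17, 152-1 was the highest COX11 KO library at ZT2 (33 of 132, and 23.6%). The overlap was smaller elsewhere. At ZT6 46-3 and 48-2 were both the highest of NDUFA5 KO in 13 of the 18 (40 of 132, and 11.3% of all genes). At ZT0 152-1 was the highest of COX11 KO in 13 (43 of 132, and 26.4%) and library 3 the highest of WT in 7 (18 of 132, and 12.5%).

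For example, Pp3c19_9840 had 2940 and 2280 CPM in 46-1 and 46-3, against 849, 284 and 232 in the other NDUFA5 KO libraries at ZT2. In WT at ZT6 it had 100 and 192 CPM in libraries 2 and 5 and 3.2 to 54.4 in the rest. What 46-1, 46-3, WT 2 and WT 5 have in common was not tested.

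Lines of a knockout were compared by their ranges, and the difference between lines was not tested. At ZT2 the median of the 150 genes lay between 6.71 and 6.84 in the 3 libraries of NDUFA5 KO line 46 and between 6.49 and 6.66 in the 2 of line 48, and line and code letter coincide there. Gene by gene, line 46 was entirely above line 48 in 47 genes (31.3%, and 24.3% of all genes) and entirely below in 61 (40.7%, and 25.4%). In COX11 KO at ZT2, line 150 lay between 6.34 and 6.64 and line 152 between 6.64 and 6.71.

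Against WT, finally, the knockout levels are a description only, since the WT libraries that chose the genes enter each difference. At ZT2 the median log2 fold change was -0.17 in COX11 KO (0.004 over all genes tested) and -0.04 in NDUFA5 KO (0.04). The median was 0.275 and -0.32 at ZT0 (0.003 and -0.044 over all genes), and -0.16 and 0.10 at ZT6 (-0.03 and -0.019). In NDUFA5 KO at ZT0, 57 genes were at least 2-fold lower than WT and 42 at least 2-fold higher. In COX11 KO at ZT0 these numbers were 11 and 30. The shares of all genes at these limits are not given. The quartiles in NDUFA5 KO at ZT0 were -1.577 and 1.151 for the 150 genes, against -0.773 and 0.577 for all genes. In COX11 KO at ZT0 they were -0.141 and 0.735, against -0.348 and 0.405. The wider spread in NDUFA5 KO at ZT0 was thus also seen over all genes. The first gene by rank, Pp3c15_6620, stood in steps at ZT0, with 6.28 to 14.3 CPM in WT, 35.8 to 47.8 in COX11 KO and 126 to 282 in NDUFA5 KO, with no overlap. The knockouts differed there by -2.19 (SE 0.247, edgeR adjusted p = 4.12e-10). At ZT2 they did not differ beyond their spread (-0.36, SE 0.224, edgeR adjusted p = 0.242), with 466 to 624 CPM in COX11 KO and 524 to 771 in NDUFA5 KO.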

How the data were processed

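RNA of protonema with young gametophores was sequenced from the 3' end (QuantSeq FWD), per the labels' protocols. A single table was deposited by the authors: expected counts for each gene, not normalized. The submitters' processing notes list Bowtie2 2.2.5 along with SAMtools 1.6, and also HTSeq 2.0.2. Neither genome build nor annotation is given in the sources used here. Of the deposited values 2.35% were more than 1e-06 from a whole number. The design had assumed raw counts, and the expected counts were rounded to whole numbers before the test. The table has 57 columns, of which 47 carry the code of a library and 10 were not used. The 5 summary lines, which hold 26.2% to 39.9% of a library's counts, were left out. Antisense and overlapping genes cannot be told apart where the counting of strand is not given.

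Group, line and replicate came from the sample titles. NDUFA5 KO 46-3 at ZT6 is line 46 by title and line 48 by its characteristics, and the title was followed. The labels do not say that replicates came from separate cultures, so p-values reflect only the variation among these libraries, possibly technical. In 105 comparisons of libraries of the same group, the chi-square per gene lay between 2.44 and 69.4, and no library was treated as a copy.

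The 150 genes were ranked on log2(CPM + 1) by library totals. The tests used edgeR 4.0.16 (R 4.3.3, limma 3.58.1) with filterByExpr, TMM and 1 mean for each of 9 groups over all 47 libraries. Contrasts were tested by quasi-likelihood F at a Benjamini-Hochberg FDR of 0.05 over 18460 genes, and standard errors were derived from the F statistic. Common dispersion came to a biological coefficient of variation of 21.8%. The fit was tried on data simulated with the same dispersion for every gene, for the COX11 KO contrast of ZT2 with ZT0 only. That does not cover genes that vary widely between libraries. DESeq2 1.42.0, other scalings, no filter, the code letter, a replicate block, libraries left out and genes without fractional counts were alternatives. Named genes are at most 2 per direction in each ranking, since the IDs have no names: first by rank, at the limit of the selection, most abundant, largest and lowest peak in each knockout, and largest differences between knockouts (average log2 CPM above 1). Members, lists and tests were chosen with earlier results of these data known. Intervals and floors cover counting error only.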

Additional observations from a re-analysis of the deposited data

Results flagged for a closer look

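In groups of 4 to 10 libraries, the named genes and the median of the 150 were tested for a distant library with Dixon's criterion on log2(CPM + 1). Of 252 groups, 9 were flagged, and chance flags about 1 in 20. The libraries below the rest were Pp3c14_12850 in COX11 KO 150-1 at ZT0 (1.14 CPM), Pp3c20_23430 in WT 3 at ZT2 (288 CPM), Pp3c23_14240 in COX11 KO 152-1 at ZT6 (20.3 CPM), Pp3c24_12160 in COX11 KO 150-3 at ZT2 (6.07 CPM), Pp3c4_21500 in NDUFA5 KO 46-1 at ZT0 (30.6 CPM) and Pp3c7_20320 in COX11 KO 152-3 at ZT6 (144 CPM). Those above the rest were Pp3c15_22920 in WT 4 at ZT0 (19.2 CPM), Pp3c9_5760 in COX11 KO 150-3 at ZT2 (41.6 CPM) and Pp3c3_14480 in NDUFA5 KO 48-1 at ZT0, where 0.202 CPM is 1 count.

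The change from ZT0 to ZT2 differed between the knockouts in the interaction contrast of edgeR for Pp3c14_10250 (3.13), Pp3c14_12850 (2.53), Pp3c3_14907 (-4.89) and Pp3c9_5760 (-4.68), as log2 of COX11 KO over NDUFA5 KO. The change from ZT6 to ZT2 differed for Pp3c4_21500 (6.02), Pp3c8_8860 (3.99), Pp3c9_5760 (-3.13) and Pp3c16_20890 (-1.82).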

How the results depend on the processing

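Of 19 counts recomputed under the settings other than leaving out 1 library, 164 of 175 values stayed within 1.5 times. Within code letter Z, genes higher and lower in COX11 KO than NDUFA5 KO at ZT2 were 8 and 7, genes higher at ZT6 were 2, the larger ZT0 to ZT2 change counted 19 and the smaller 35, and the larger and smaller ZT6 to ZT2 change 12 and 0. That setting keeps 1 COX11 KO library at ZT2, which is assumed to vary like the other groups. With library totals, 19 genes were lower in COX11 KO at ZT2 and 3 had a smaller ZT6 to ZT2 change. Chosen after seeing the data, leaving out NDUFA5 KO 46-1 and 46-3 at ZT2 gave 14 higher and 18 lower at ZT2, and leaving out 46-3 and 48-2 at ZT6 gave 22 lower at ZT6. The cause was not tested.

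Leaving out 1 library at a time gave ranges of 145 to 146 and 138 to 142 genes for ZT2 over ZT0 in COX11 KO and NDUFA5 KO, 137 to 140 and 126 to 133 for ZT2 over ZT6, 2 to 4 and 36 to 45 for higher and lower in COX11 KO at ZT6, 19 to 24 and 20 to 29 at ZT2, and 3 to 8 for a smaller ZT6 to ZT2 change. Leaving out a WT library kept 137 to 149 of the 150 genes, and TMM-scaled totals 148.

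With line and number as a replicate block, ZT2 over ZT0 counted 145 in COX11 KO and 141 in NDUFA5 KO, ZT2 over ZT6 139 and 131, and no count left 1.5 times. Same-numbered libraries did not deviate together (median r -0.038 over 40 pairs, 6 over 0.1), so the numbers were not taken as pairs. Levels of the knockouts at a single time could not be compared under the block, but their changes over time could. The ZT0 to ZT2 change was larger in COX11 KO for 35 genes and smaller for 48, and the ZT6 to ZT2 change for 25 and 5.

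Of 36 results on named genes, 6 lost their call under some setting and none reversed: Pp3c24_9690 from ZT0 to ZT2 in COX11 KO, Pp3c9_5760 and Pp3c16_20890 from ZT6 to ZT2 (all within letter Z, where the latter differences were -2.996 and -2.211), Pp3c7_15800 (library totals), Pp3c18_17700 and Pp3c8_1870 (letter Z and single libraries left out, among others). With the letter as covariate Pp3c5_22920 was called lower at ZT2 than ZT6 in COX11 KO (-2.98, edgeR adjusted p = 0.0352). Depth limits the low genes, such as Pp3c3_14480 with 1 count in NDUFA5 KO at ZT0.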
